A study of Mus musculus with 185 samples.

Results

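The zona incerta of the 24 h study was described in 14 count columns, of 95 columns from that study and 90 from another study of the series that is not used here. It is a thin sheet of mostly GABAergic (inhibitory) neurons between the thalamus and the hypothalamus. Its neurons send inhibitory fibres to the thalamus, and some of them promote feeding when they are stimulated. During a fast the adrenal cortex secretes more corticosterone, which enters the brain and acts through the glucocorticoid receptor, a transcription factor that binds DNA at inverted repeats. Cells that run short of insulin and glucose also shift toward the use of fat and ketone bodies and slow the synthesis of protein and sterols.

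The mice were male C57BL/6 J animals of 8 weeks, an inbred strain. They were housed singly and either kept on chow or fasted for 24 h. RNA of 5 dissected regions was sequenced per mouse, from the left hemisphere except for the hypothalamus, which was taken from both, after removal of ribosomal RNA. Each mouse gave 1 column to a comparison of the diets within a region, so those p-values measure the spread between mice. The comparison with the hypothalamus used both regions of each mouse, so its p-values measure how the region difference varied between mice.

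The table of counts ties 5 columns to each mouse and its diet, but not to regions, so the columns were chosen by measured marker levels. Mice with all 5 columns at 1000000 counts or more were kept. In each mouse the columns with the highest mean log2(CPM + 1) of markers of the hypothalamus (Avp, Oxt, Nkx2-1, Six6, Rax and Fezf1), hippocampus (C1ql2, Lct, Dsp and Iyd) and both colliculi (Pax7, Tfap2b and Tfap2d) were set aside in turn, and the remaining column was assigned to the zona incerta. CPM is the count scaled to 1000000 counts per column. Of 19 mice, 4 were left out for a column under that minimum and 1 because a column met 2 of the marker sets. The lowest column kept had 1094563 counts, and the highest that led to an exclusion had 964813. There remained 6 mice on chow and 8 fasted mice. These marker genes chose the columns and are not reported as results. CPM beside a test of diet is also scaled within its set of columns by TMM (trimmed mean of M values), so 1 column can have different values in different sets, while the marker levels and sums of the columns are plain CPM.

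The fasted mice with an assigned column had lost weight, with changes from -21.4% to -17.8% and a median of -19.7%. The mice on chow changed by between -0.386% and 1.59%, so the groups did not overlap.

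These assigned columns differed in quality between the diets. The number of genes expected in a draw of 500000 counts was under 16000 in 4 of 6 chow columns and in 2 of 8 fasted columns, and the 6 low columns had 13428 to 15658 such genes. Genes of the mitochondrial chromosome took 20.3% to 31.3% of the counts in 5 of these 6 columns and 3.01% in fasted mouse 1454. They took 7.73% to 10.8% in the 8 other assigned columns. The labels mark the zona incerta library as failing the alignment step in 5 of these 6 mice. These 5 libraries, from 3 of 6 chow and 2 of 8 fasted mice, are labelled with 0 ng/uL of RNA and with an SP flowcell. The zona incerta libraries of the other 9 mice are labelled with an S2 flowcell, and among them that of chow mouse 1452 is also labelled with 0 ng/uL. The study extracted the 5 SP libraries in a block without detectable RNA, sequenced that block apart from the rest and set it aside as defective. Extraction block and flowcell are therefore unbalanced between the diets. For chow mouse 1431 the labels mark the hippocampus library as failing and the zona incerta library as passing. Its assigned column had 1094563 counts, 14178 such genes and 20.7% mitochondrial counts. Another column of this mouse had 35166415 counts, 16707 such genes and 9.47% mitochondrial counts. The mean hippocampus marker level was 0.843 in the assigned column and 3.28 in the other. Which library the assigned column holds was not tested, and it is kept among the 6 chow columns. Totals ran from 1094563 to 18549446 counts in the chow columns and from 5216921 to 57103074 in the fasted ones.

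A second set, called the checked columns here, was therefore set beside the first. It was defined after the columns' values had been seen. It takes the 1 column of a mouse that passes both limits and has low hypothalamus, hippocampus and colliculus markers. Low means a mean log2(CPM + 1) under 3.5, 3.5 and 2.5 in that order. The zona incerta library of the mouse must also be labelled as passing alignment. The checked set holds 13 columns, 6 chow and 7 fasted, of which 8 are also assigned columns. For chow mouse 1431 it takes the other column described above, with 35166415 counts, which the rule had set aside as hippocampus. In it mitochondrial genes took 7.73% to 9.69% of counts in the chow columns and 7.95% to 12.1% in the fasted ones, and totals were 14249161 to 57103074 counts. The zona incerta libraries of these 13 mice are all labelled with the S2 flowcell. Results are given in both sets unless 1 set is named, and the part of quality in the difference between them was not tested.

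**Figure D1:**
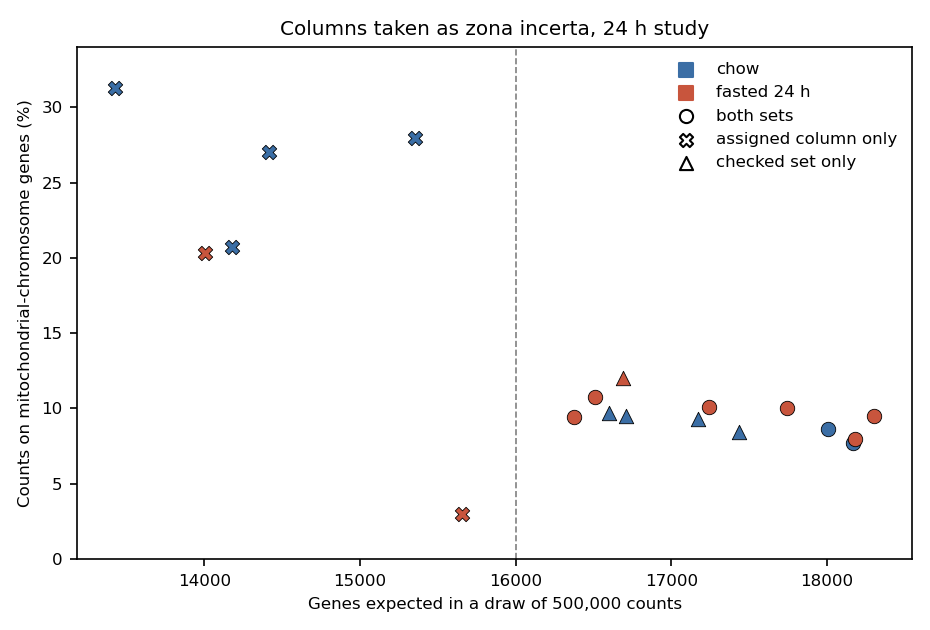
Each point is 1 column, with the genes expected in a draw of 500000 counts on the x axis and the percent of its counts on mitochondrial-chromosome genes on the y axis, coloured by diet and shaped by the set it belongs to. The dashed line marks 16000 genes, and the 6 points to its left are assigned columns only, 4 from chow and 2 from fasted mice.

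The columns also differed in the tissue they held. In plain CPM over the assigned columns, Dlx1 (a transcription factor of developing GABA neurons) ran from 0.600 to 12.1 CPM, Dlx6 from 1.20 to 18.3 CPM and Lhx6 (a factor of a subset of incertal GABA neurons) from 0.0858 to 20.6 CPM. Dlx1 was not highest in the assigned column of any of the 14 mice. It was highest in the hypothalamus column of 12 mice, and it ran from 3.94 to 20.9 CPM over the 14 hypothalamus columns. Lhx6 was highest in the assigned column of 5 of 14 mice. The markers named for the zona incerta were thus not highest in most of these columns, which are called zona incerta by the rule alone.

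10 thalamus markers summed to 2076 to 4854 CPM in 12 of the 13 checked columns. The exception was chow mouse 1443 with 406 CPM, whose 8 choroid plexus markers summed to 2402 CPM. In the other 12 checked columns the choroid plexus list stood between 37.0 and 315 CPM. The library of mouse 1443 is labelled as failing the study's principal component check. Among the assigned columns the thalamus list had a median of 501 CPM on chow and 2918 CPM in fasted mice. The 8 striatum markers reached 2183 CPM in the assigned column of chow mouse 1431 and 2839 CPM in that of fasted mouse 1454. The 10 endothelial markers summed to 27.4 to 49.5 CPM in the 6 low columns and to 220 to 312 CPM in all other columns of both sets. In bulk tissue, fewer cells of a type and less RNA per cell cannot be told apart.

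**Figure D2:**
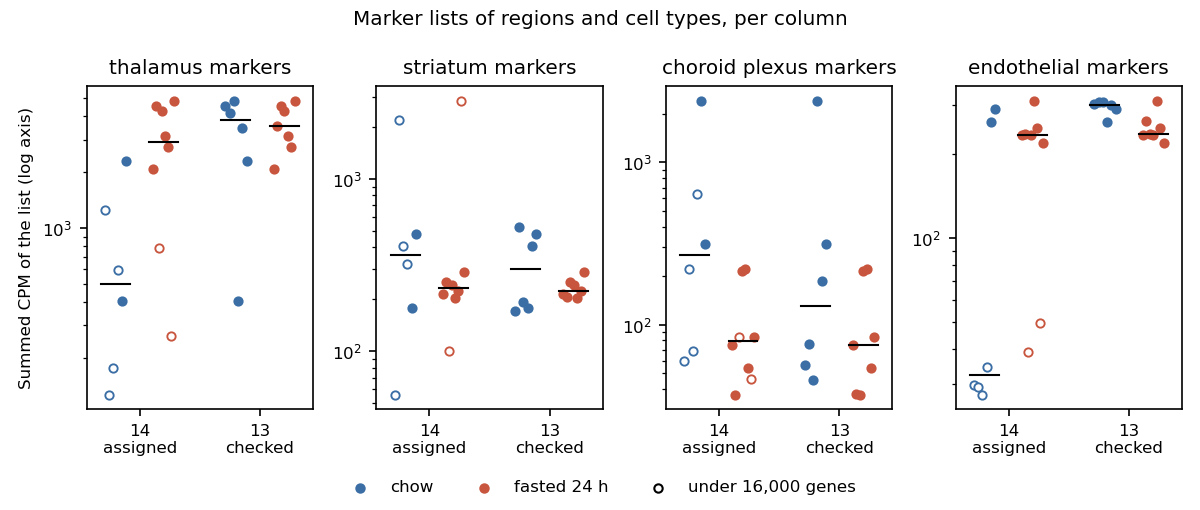
Summed CPM of 4 marker lists on a log axis, 1 point per column, by diet, for the 14 assigned and the 13 checked columns, with a bar at each median and open points for columns under 16000 genes. Endothelial sums are lower in every open point than in any filled one, thalamus sums are lower in every open point than in any filled one but that of chow mouse 1443, and this mouse is the low thalamus and high choroid plexus point among the checked chow columns.

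Of 19904 genes tested in the assigned columns, 94 rose and 44 fell in fasted mice by edgeR's quasi-likelihood test with Benjamini-Hochberg adjustment at an adjusted p under 0.05, which is 0.693% of the genes tested (0.472% up and 0.221% down). In the checked columns 1119 of 21594 genes passed (5.18%), of which 647 rose (3%) and 472 fell (2.19%). The calls shared by both sets were 76.1% of those in the assigned columns and 9.38% of those in the checked columns, and each of them had the same direction in both. The sets share 8 columns, so their calls are not independent. Leaving out single mice gave 46 to 974 calls in the assigned columns, with 974 without chow mouse 1452, 955 without fasted mouse 1454 and 707 without fasted mouse 1434, and 674 to 1298 in the checked columns. The median size of a called change in the checked columns was 0.77 on the log2 scale for genes that rose and 0.62 for genes that fell.

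41 genes were called in the assigned columns with all mice and without each mouse in turn. 39 of them rose, among them Plin4, Cdkn1a, Sgk1, Fkbp5, Mfsd2a and Pdk4. The pair that fell was Fcrl2 and Gkn3, a gene of arterial endothelium that was named after its values had been seen. Gkn3 stood at 0.840 to 1.60 CPM on chow and at 0 to 0.283 CPM in fasted mice. 40 of the 41 were also called in the checked columns and without each of their mice.

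Genes known to respond to glucocorticoids rose. Their list was chosen with earlier results of these data known, so its shares are not independent of these data. It holds genes that are also among the largest calls, such as Plin4, Cdkn1a and Sgk1. In the assigned columns 16 of 22 listed genes rose and none fell, against 0.472% of all genes called up, and their median log2 fold change was 1.89 against 0.02 over all genes tested. All 22 rose in the checked columns, against 3% of all genes, with a median of 1.82 against 0.00. Without each mouse in turn, 12 to 18 rose in the assigned columns and 20 to 22 in the checked columns, and none fell. In the assigned columns over the gene limit, 2 chow and 6 fasted, 18 rose and none fell. In the 4 chow and 2 fasted columns where the zona incerta markers ranked first or second in the mouse, none of the 22 passed by edgeR and their median was 2.16.

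Fkbp5 encodes a co-chaperone that lowers the affinity of the glucocorticoid receptor for its hormone. It lies on the minus strand at chr17:28618058-28737521 (GRCm39). It ran from 13.9 to 26.7 CPM on chow (median 20.7) and from 66.4 to 146.3 CPM in fasted mice (median 99.6) in the assigned columns. The groups did not overlap, and the level was 5.03-fold higher in fasted mice (log2 2.33, SE 0.22, edgeR adjusted p = 7.45e-05). The rise was 5.17-fold in the checked columns (log2 2.37, SE 0.25, adjusted p = 0.000101).

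Sgk1 encodes a kinase that acts on ion channels and transporters and lies at chr10:21758083-21875802. It ran from 36.7 to 63.3 CPM on chow (median 44.6) and from 234 to 802 CPM in fasted mice (median 277). The lowest fasted mouse was far above the highest chow mouse, and the rise was 7.49-fold (log2 2.90, SE 0.31, edgeR adjusted p = 0.000282). The value of 802 CPM belonged to fasted mouse 1434, a low column. In the checked columns fasted mice had 289 to 426 CPM and the rise was 5.92-fold (log2 2.57, SE 0.12, adjusted p = 1.02e-07).

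Plin4, a protein that coats lipid droplets (chr17:56406617-56416931), ran from 1.19 to 8.17 CPM on chow (median 4.71) and from 74.1 to 178.1 CPM in fasted mice (median 121.4). The difference was 25.2-fold (log2 4.65, SE 0.38, edgeR adjusted p = 3.03e-05) and 20.7-fold in the checked columns (log2 4.37, SE 0.26, adjusted p = 6.99e-07). Cdkn1a, the cell cycle inhibitor p21 (chr17:29309936-29319701), ran from 2.46 to 10.7 CPM on chow and from 59.0 to 285 CPM in fasted mice. It rose 20.5-fold in the assigned columns (log2 4.36, SE 0.42) and 27.8-fold in the checked columns (log2 4.80, SE 0.36). The noncoding gene Dino lies inside Cdkn1a on the opposite strand and was called up too. The strand setting of the counting is not given in the sources used here, so reads of the pair cannot be told apart.

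Regulators of transcription and signalling made up much of the rest of this list. Per1, a period gene of the clock with glucocorticoid binding sites, rose from a median of 39.6 to 104.9 CPM in the assigned columns (2.58-fold) and 2.12-fold in the checked columns. Hif3a, a hypoxia-inducible factor subunit that restrains its relatives, rose 8.25-fold and 8.47-fold in the same order. Nfkbia, the inhibitor that holds NF-kappaB in the cytosol, rose 4.67-fold and 3.71-fold, and the phosphatase gene Dusp1 2.94-fold and 2.74-fold. Fasted and chow mice did not overlap for any of these 4 genes in either set. For Hif3a the naming rule required this in both sets. Map3k6, a stress kinase, rose 5.65-fold and 6.44-fold, and Errfi1, an inhibitor of the epidermal growth factor receptor, 2.89-fold and 2.48-fold.

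6 of the 22 genes passed the test in the checked columns only: Tsc22d3 (also called Gilz), Zbtb16, Klf9, Klf15 and the metallothioneins Mt1 and Mt2, which bind zinc and copper. Mt1 ran from 61.5 to 88.1 CPM on chow and from 169 to 232 CPM in fasted mice in the checked columns, a rise without overlap (log2 1.43, SE 0.10, edgeR adjusted p = 1.70e-06). In the assigned columns it ran from 49.1 to 402 CPM on chow and from 137.1 to 596 CPM in fasted mice (adjusted p = 0.840). The 4 low chow columns were the 4 highest on chow and the low columns of fasted mice 1434 and 1454 the highest among fasted mice, as the plot of levels per mouse shows. Tsc22d3 was called in 9 of 13 fits of the checked columns that each left out 1 mouse. Klf15, a factor of amino acid catabolism, rose 2.49-fold in the checked columns (adjusted p = 1.08e-05) and had a log2 difference of 0.94 (SE 0.27, adjusted p = 0.109) in the assigned columns.

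**Figure D3:**
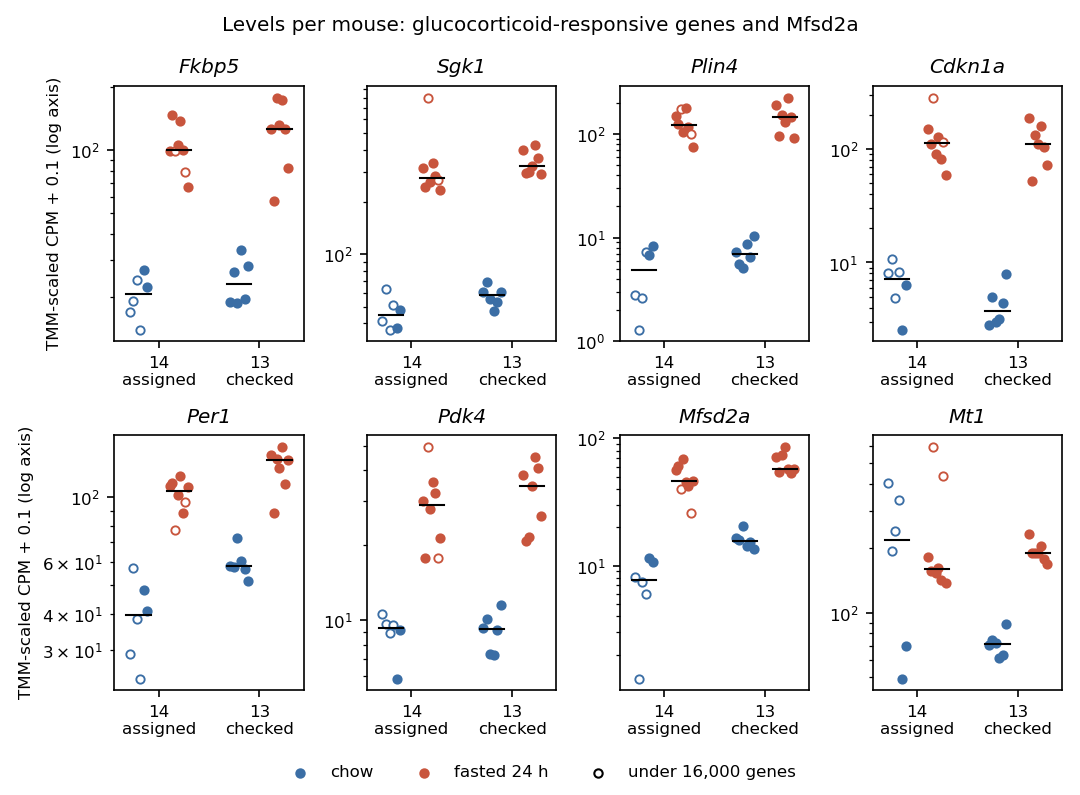
CPM (scaled by TMM within each set) + 0.1 on a log axis of 8 genes, 1 point per mouse, by diet and set of columns, with a bar at each median and open points for columns under 16000 genes. Fasted and chow points are apart for 7 genes in both sets, while Mt1 overlaps in the assigned columns, where the open chow points lie high.

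Since many of these genes are known targets of a DNA-binding receptor, the starts of the listed genes were searched for its half-sites as an inverted repeat on both strands, written as GNACA, 3 bases of any kind and TGTNC, where N is any base. Of 32851 RefSeq promoters (250 bases before to 50 after a start, GRCm38.p6) 0.475% held it. Promoters were matched by symbol for 20 of the 22 listed genes, and 3 genes held it: Map3k6, Mt1 and 1 start of Sgk1. The match began at base 70 of the window in Map3k6, 94 bases before the start of Mt1 (-94) and at base 63 of the window in Sgk1. The windows are on the plus strand at chr4:133240568-133240867, chr8:94178839-94179138 and chr10:21993640-21993939. They are printed because all 3 genes rose in the checked columns, and capitals mark the match.
Map3k6: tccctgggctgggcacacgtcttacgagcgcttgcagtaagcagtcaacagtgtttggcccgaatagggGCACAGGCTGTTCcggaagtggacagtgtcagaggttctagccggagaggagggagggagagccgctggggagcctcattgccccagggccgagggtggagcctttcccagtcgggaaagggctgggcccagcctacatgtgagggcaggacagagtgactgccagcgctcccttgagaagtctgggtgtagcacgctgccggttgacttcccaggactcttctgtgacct
Mt1: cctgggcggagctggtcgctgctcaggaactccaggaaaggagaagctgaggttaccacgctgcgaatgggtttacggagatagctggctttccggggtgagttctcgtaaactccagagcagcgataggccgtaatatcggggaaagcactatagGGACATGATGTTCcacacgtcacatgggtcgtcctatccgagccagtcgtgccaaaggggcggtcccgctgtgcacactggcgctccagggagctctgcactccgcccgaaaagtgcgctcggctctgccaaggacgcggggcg
Sgk1: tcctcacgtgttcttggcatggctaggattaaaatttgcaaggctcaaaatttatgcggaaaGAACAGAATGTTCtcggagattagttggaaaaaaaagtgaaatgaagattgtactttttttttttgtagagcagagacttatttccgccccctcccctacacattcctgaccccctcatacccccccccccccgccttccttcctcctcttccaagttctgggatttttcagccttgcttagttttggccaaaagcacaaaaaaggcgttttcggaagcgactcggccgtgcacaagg
A match shows these letters in this window and not that the receptor binds there. Among all promoters of genes called up in the checked columns 1.39% held the motif, against 0.319% of the promoters of tested genes that were not called. The 1.39% is 8 of 574 promoters, from 7 genes that include Map3k6, Mt1 and Sgk1, so it partly counts the printed genes again. None of the 420 promoters of the genes called down held it, which is too few promoters to show a difference from 0.319%.

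The receptors themselves were not called. Nr3c1, the glucocorticoid receptor, ran from 76.2 to 197 CPM on chow and from 71.6 to 157.4 CPM in fasted mice in the assigned columns. The groups overlapped (log2 difference -0.36, SE 0.23, adjusted p = 0.376), and the checked columns gave -0.49 (SE 0.22, adjusted p = 0.236). Without chow mouse 1443, the lowest of the chow columns, the checked value was -0.63 with an edgeR adjusted p of 0.0487. Nr3c2, the mineralocorticoid receptor, had log2 differences of -0.50 (SE 0.22) and -0.50 (SE 0.24). None of the 10 listed receptors and steroid access genes passed in either set, where 0.693% (assigned) and 5.18% (checked) of all genes passed.

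Among the other genes with the largest rises, Itgad, an integrin subunit of phagocytes, ran from 0 to 1.35 CPM on chow and from 3.37 to 13.6 CPM in fasted mice. It rose 17.3-fold (log2 4.11, SE 0.52, edgeR adjusted p = 0.00105) and 15.4-fold in the checked columns. Xdh, which makes uric acid from purines, ran from 0 to 7.27 CPM on chow and from 7.93 to 51.1 CPM in fasted mice (9.62-fold), and rose 5.67-fold in the checked columns. Maff, a small leucine zipper factor, rose 11.1-fold and 5.59-fold. Pla2g3, a secreted phospholipase, rose 6.67-fold and 3.86-fold, and Arrdc2, an arrestin-like gene, 7.15-fold and 6.49-fold. Gabrr2, a rho subunit of GABA-A receptors, rose from a median of 1.13 to 7.04 CPM (6.09-fold) and 6.19-fold in the checked columns, and its call in the assigned columns held under 18 of 25 alternatives. The diets did not overlap for any of these 6 genes in either set. The naming rule required this in the assigned columns, so it is no support there. For Itgad, Arrdc2 and Gabrr2 it was required in the checked columns too. The sets share 8 columns, so the checked columns give no independent support for the other genes either. Of all genes called up, 72 of 94 did not overlap in the assigned columns and 425 of 647 in the checked columns.

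Few genes that met the naming rule fell in the assigned columns. Fcrl2, an Fc receptor-like gene of microglia, ran from 9.20 to 15.5 CPM on chow and from 2.57 to 7.16 CPM in fasted mice. It was 2.93-fold lower (log2 -1.55, SE 0.25, edgeR adjusted p = 0.00922) and 2.39-fold lower in the checked columns (log2 -1.26, SE 0.18, adjusted p = 0.000831). Rspo3, a Wnt pathway ligand, Trhde, an enzyme that degrades thyrotropin-releasing hormone, and Tbc1d32 were called down with log2 values of -1.69, -1.28 and -0.79. These calls held under only 4, 4 and 5 of 25 alternatives. Their log2 values in the checked columns were -1.10, -0.83 and -0.31, with adjusted p of 0.188, 0.169 and 0.106. Chow mouse 1443 was the highest of the checked chow columns for Rspo3, at 12.5 CPM against 1.54 to 2.90 CPM in the others.

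The genes that fell most in the checked columns, among those with an average log2 CPM of 1 or more and no overlap between diets, are known from several cell types. Alpl, the tissue-nonspecific alkaline phosphatase, ran from 10.5 to 12.2 CPM on chow and from 3.27 to 5.81 CPM in fasted mice. The groups were apart, with a 2.58-fold lower level in fasted mice (log2 -1.37, SE 0.12, edgeR adjusted p = 2.39e-05). Pltp, which transfers phospholipids between lipoproteins, ran from 42.2 to 50.4 CPM on chow and from 14.0 to 28.5 CPM in fasted mice (2.35-fold lower, log2 -1.24, SE 0.14). Bin2, a gene of leukocytes and microglia, was 2.97-fold lower, and Layn, a hyaluronan receptor, 2.39-fold lower. None of these 4 passed in the assigned columns, where the chow range of Pltp was 8.09 to 37.7 CPM. Gbp3 and Gbp4, Bfsp2, Ak4 and the histone gene H1f3 were called down as well, Ak4 in both sets, with log2 values between -1.45 and -1.21. Gbp4 was called in 3 and Ak4 in 10 of 13 fits of the checked columns that each left out 1 mouse. The guanylate-binding proteins Gbp3 and Gbp4 belong to a family of close copies, and their counts are uncertain for that reason.

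Transporters of the blood-brain barrier changed in both directions. Mfsd2a carries lysophospholipids with omega-3 fatty acids into the brain and lies at chr4:122840643-122855244. It ran from 1.19 to 11.3 CPM on chow and from 25.8 to 69.1 CPM in fasted mice, 6.02-fold higher without overlap (log2 2.59, SE 0.30, edgeR adjusted p = 0.000589). In the checked columns the ranges were 13.5 to 20.2 CPM and 52.9 to 86.0 CPM (4.06-fold, log2 2.02, SE 0.13, adjusted p = 1.70e-06). Slc2a1, the glucose transporter GLUT1, rose 3.80-fold in the assigned columns with overlap (20.3 to 66.2 CPM against 45.6 to 173 CPM) and 2.26-fold in the checked columns without it (58.1 to 89.3 CPM against 150 to 220 CPM). Its call in the assigned columns held under 11 of 25 alternatives, with log2 values from 1.18 to 2.25 over them. In all, 2 of 15 transporters rose and none fell in the assigned columns, and 7 rose and 4 fell in the checked columns. Over all genes 0.472% rose and 0.221% fell in the assigned columns, and 3% rose and 2.19% fell in the checked columns. In the checked columns, Slc7a5, the large neutral amino acid carrier, rose 1.42-fold and Slc38a5, a glutamine carrier, was 5.02-fold lower, at 2.45 to 3.28 CPM on chow and 0.147 to 0.855 CPM in fasted mice.

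The endothelial markers beside these transporters gave different pictures in the sets. None of 10 was called in the assigned columns, with a median log2 difference of 0.53. In the checked columns 4 fell (Kdr, Tie1, Tek and Cldn5), against 2.19% of all genes, and the median was -0.30. Cldn5 was called in 4 of 13 fits that each left out 1 mouse, and the other 3 genes in all 13. Kdr, the main receptor for vascular endothelial growth factor, was 1.69-fold lower (log2 -0.76, SE 0.12, edgeR adjusted p = 0.00223). The summed list ran from 261 to 309 CPM on chow and from 220 to 312 CPM in fasted mice there. Its median in the assigned columns was 32.2 CPM on chow and 234 CPM in fasted mice, a difference in the same direction as that of Mfsd2a and Slc2a1. The part of endothelial content in the values of these transporters was not tested.

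Genes of sterol synthesis fell in the checked columns. Of 20 listed genes 8 fell and none rose, against 2.19% of all genes called down. All 20 differences were negative, and their median was -0.40 on the log2 scale. Dhcr7, the last enzyme of cholesterol synthesis, ran from 32.7 to 40.9 CPM on chow and from 20.2 to 26.8 CPM in fasted mice (1.52-fold lower, log2 -0.61, SE 0.08, edgeR adjusted p = 0.000261). The groups did not overlap. Hmgcs1, which starts the pathway, ran from 129.9 to 162.4 CPM and from 78.2 to 123.6 CPM (log2 -0.54, SE 0.11, adjusted p = 0.00920), and Msmo1, Fdps and Idi1 also fell without overlap. Of all genes called down, 213 of 472 did not overlap in the checked columns and 9 of 44 in the assigned columns. In the assigned columns none passed, 16 of 20 were negative and the median was -0.33.

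Of 16 folding genes of the endoplasmic reticulum 6 fell in the checked columns, against 2.19% of all genes, among them Pdia4, Pdia6, Creld2 and Sdf2l1, the last from a median of 6.93 to 3.34 CPM (log2 -0.92, SE 0.13, edgeR adjusted p = 0.000593). Herpud1, which serves the degradation of misfolded proteins, rose in both sets, from a median of 30.1 to 54.4 CPM in the assigned columns (1.89-fold) and 1.57-fold in the checked columns. Its call in the assigned columns held under 17 of 25 alternatives. No other member was called in the assigned columns. Of 13 heat shock genes 2 fell in the checked columns (Chordc1 and Hspa1b) and none was called in the assigned columns. Hspa1b shares most of its sequence with Hspa1a, so its count is uncertain, and it was called in 3 of 13 fits that each left out 1 mouse.

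Genes of fuel use changed in both directions in the checked columns. Pdk4, the kinase that closes the entry of pyruvate into the Krebs cycle, ran from 5.74 to 10.5 CPM on chow and from 17.7 to 49.6 CPM in fasted mice, 3.32-fold higher without overlap (log2 1.73, SE 0.25, edgeR adjusted p = 0.00394). It rose 3.58-fold in the checked columns. Angptl4, an inhibitor of lipoprotein lipase, rose 6.30-fold in the checked columns, from 0.958 to 1.53 CPM on chow to 5.26 to 11.8 CPM in fasted mice (log2 2.66, SE 0.21, adjusted p = 6.02e-06). Its difference in the assigned columns was 1.45 (SE 0.36, adjusted p = 0.0819). Ucp2, an uncoupling protein of the inner mitochondrial membrane, rose 2.33-fold in the checked columns and differed by 0.17 (SE 0.32) in the assigned columns. Cpt1a and Pdk2 rose in the checked columns and Acads and Acot2 fell, so 5 of 22 genes of fat and ketone use rose and 2 fell there, where 3% of all genes rose and 2.19% fell. The counts were 1 and 0 in the assigned columns. Cpt1a was called in 4 and Acot2 in 7 of 13 fits of the checked columns that each left out 1 mouse.

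Ddit4, an inhibitor of mTORC1, rose in both sets (3.97-fold and 3.48-fold). Its call in the assigned columns held under 11 of 25 alternatives, with log2 values from 1.75 to 2.91 over them. It ran from 25.7 to 37.7 CPM on chow and from 81.3 to 160.7 CPM in fasted mice of the checked columns. Insr, the insulin receptor, Irs2, its substrate, Sesn1, Sesn2 and Tsc1 rose there too, by log2 values from 0.22 to 0.56, and Akt2 fell (log2 -0.58, SE 0.07, edgeR adjusted p = 0.000360). That is 6 up and 1 down of 20 listed genes, where 3% of all genes rose and 2.19% fell. The assigned columns had 1 up and none down, where 0.472% of all genes rose and 0.221% fell. Irs2 was called in 9 of 13 fits of the checked columns that each left out 1 mouse. Of 12 p53 targets, 5 rose in the checked columns, against 3% of all genes, among them Cdkn1a and Trp53inp1 (log2 1.15, SE 0.15), and Cdkn1a alone was called in the assigned columns. The lists share members, so their counts are not separate responses. Cdkn1a, Ddit4, Pdk4 and Per1 are also on the glucocorticoid list. In the assigned columns they were the only calls of the p53, mTORC1, fat and ketone, and clock lists, in that order. None of 16 autophagy genes was called in either set, where 0.693% (assigned) and 5.18% (checked) of all genes were called.

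**Figure D4:**
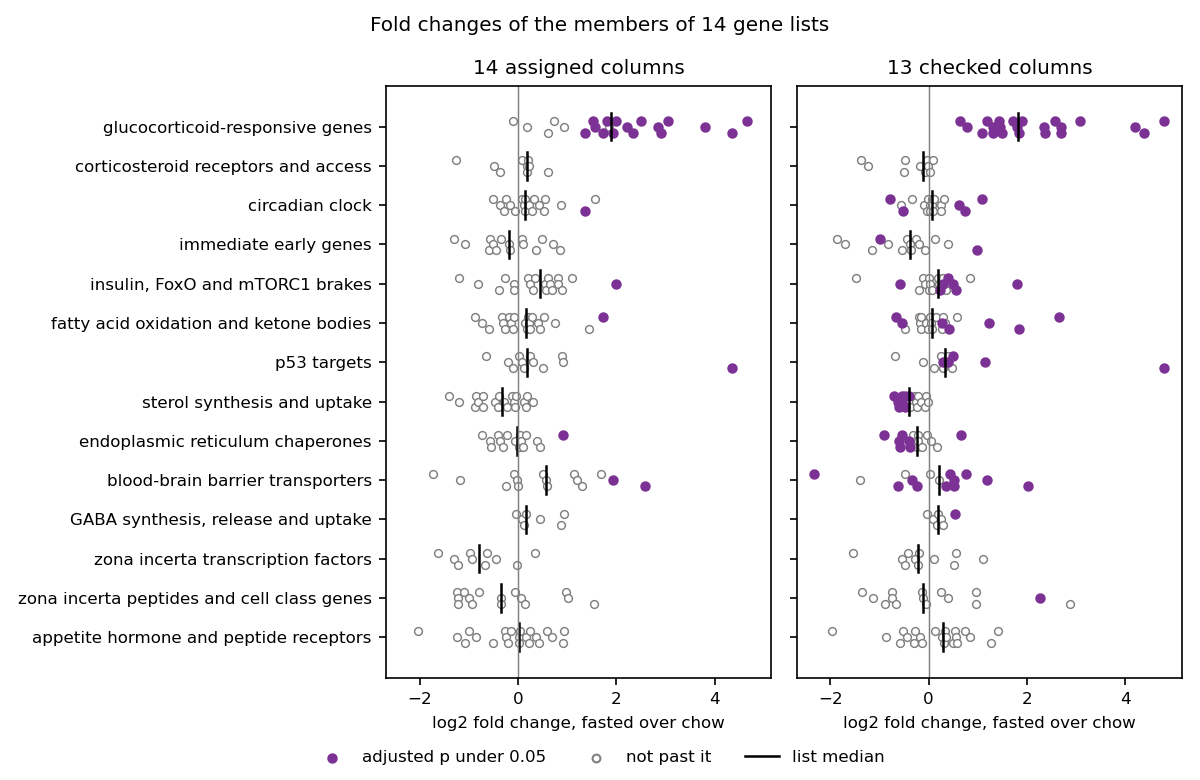
Log2 fold change, fasted over chow, of each tested member of 14 gene lists in the assigned columns (left) and the checked columns (right), with filled points past an adjusted p of 0.05 and a bar at each list's median. In the glucocorticoid list 21 of 22 genes lie to the right of 0 in the left panel and all 22 in the right, with medians of 1.89 and 1.82, and sterol genes lie to the left of 0 in the right panel.

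The general GABA neuron genes Gad1, Gad2 and Slc32a1 were not called in the assigned columns. Gad1 and Gad2, which make GABA, had medians of 291 and 210 CPM on chow and 326 and 243 CPM in fasted mice. Both overlapped, and their log2 differences were 0.13 (SE 0.35) and -0.05 (SE 0.30). Slc32a1, the vesicular GABA transporter, ran from 11.5 to 89.5 CPM and from 30.5 to 91.8 CPM (log2 0.16, SE 0.36). The checked columns gave -0.03 (SE 0.28), 0.18 (SE 0.22) and 0.17 (SE 0.24) for the same 3 genes. These errors leave room for changes in either direction.

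Of the 7 genes of GABA synthesis, release and uptake, none passed in the assigned columns and 1 rose in the checked columns. None of 14 GABA receptor subunits and none of 17 ionotropic glutamate receptor subunits on the lists passed in either set. Over all genes 0.472% rose and 0.221% fell in the assigned columns, and 3% rose and 2.19% fell in the checked columns. In lists this short a count of 0 therefore says little about their genes. Gabrr2 is not among those listed.

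Peptides and cell class genes varied widely between mice. Sst (somatostatin) ran from 24.8 to 90.7 CPM on chow and from 13.7 to 205 CPM in fasted mice, where 205 CPM belonged to mouse 1454 and the others had at most 43.5 CPM. Its log2 difference was -0.35 (SE 0.58), and -0.66 (SE 0.36) in the checked columns. Pvalb (parvalbumin) had 9.43 CPM in chow mouse 1443 and 97.1 to 364 CPM in the other chow columns, with a difference of -0.06 (SE 0.68), and of 0.26 (SE 0.41) in the checked columns. Penk, Tac1 and Calb2 had differences of -1.25 (SE 0.87), -1.22 (SE 0.87) and -1.10 (SE 0.47), and in the checked columns of -1.35 (SE 0.66), -0.74 (SE 0.66) and 0.40 (SE 0.25). None of these 5 was called in either set.

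Ddc, the enzyme that makes dopamine from L-DOPA, was the 1 of 15 peptide and class genes called in the checked columns, where 3% of all genes rose. It ran from 6.49 to 11.1 CPM on chow and from 16.3 to 96.9 CPM in fasted mice, without overlap (4.78-fold, log2 2.26, SE 0.38, edgeR adjusted p = 0.00298). It passed without each mouse in turn. Th, the first enzyme of dopamine synthesis, ran from 0.531 to 5.41 CPM and from 0.864 to 70.6 CPM, with overlap (log2 2.87, SE 0.97, adjusted p = 0.112). Th and Ddc were highest in the same fasted mice, 1424 (70.6 and 96.9 CPM) and 1425 (32.7 and 53.4 CPM). Slc18a2, the vesicular monoamine transporter, was also highest in these mice, at 83.1 and 50.6 CPM against 11.2 to 24.5 CPM in all other checked columns. How much dopaminergic tissue each column held was not tested. The assigned columns gave a difference for Ddc of 1.55 (SE 0.56, adjusted p = 0.171) and for Th of 0.98 (SE 0.89, adjusted p = 0.538).

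**Figure D5:**
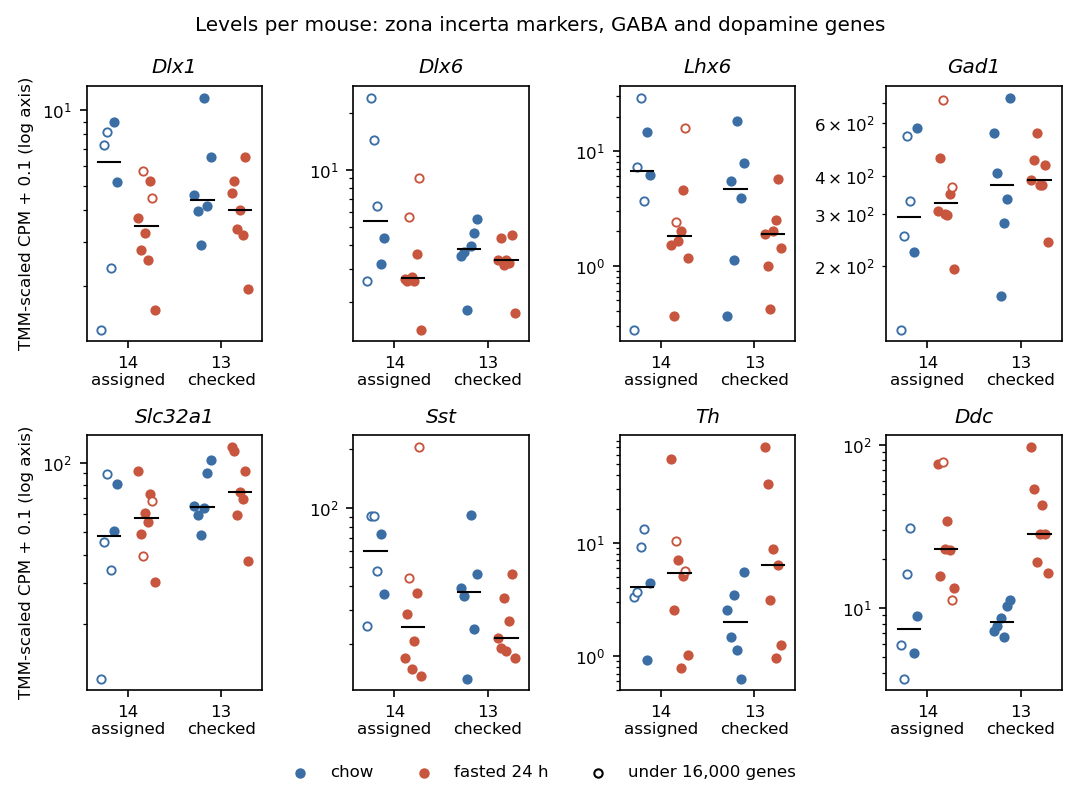
CPM (scaled by TMM within each set) + 0.1 on a log axis of 8 genes, 1 point per mouse, by diet and set of columns, with a bar at each median and open points for columns under 16000 genes. Chow and fasted points overlap for Dlx1, Dlx6, Lhx6, Gad1, Slc32a1, Sst and Th in both sets, and for Ddc in the assigned columns only.

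Of 22 tested receptors for appetite hormones and peptides none was called in either set, where 0.693% (assigned) and 5.18% (checked) of all genes were called. Mc4r, the melanocortin receptor that lowers food intake, ran from 0.450 to 2.31 CPM on chow and from 0.121 to 1.29 CPM in fasted mice (log2 -1.08, SE 0.53, adjusted p = 0.279). Lepr, the leptin receptor, ran from 0 to 7.53 CPM and from 0.382 to 6.96 CPM (log2 0.25, SE 0.58). The groups overlapped for both. The checked columns gave differences of -0.44 (SE 0.60) for Mc4r and 0.50 (SE 0.33) for Lepr.

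Among immediate early genes, Fos rose in the checked columns (1.98-fold, 4.30 to 11.2 CPM against 11.2 to 19.0 CPM, edgeR adjusted p = 0.0137). Arc, a synaptic immediate early gene, fell (1.99-fold lower, 20.6 to 54.0 CPM against 13.9 to 26.1 CPM, adjusted p = 0.00741). No other of the 15 was called there, where 3% of all genes rose and 2.19% fell, and none was called in the assigned columns. In the checked columns 12 of the 15 were negative, with a median log2 difference of -0.37. Of 19 clock genes Per1, Cry1 and Ciart rose and Nr1d1 and Dbp fell in the checked columns, where 3% of all genes rose and 2.19% fell, and only Per1 was called in the assigned columns. Nr1d1 was called in 4 of 13 fits that each left out 1 mouse. The clock time of euthanasia as a covariate left 3 up and 2 down.

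Glial lists held calls in both directions. Gjb6 and Aldh1l1 of 10 astrocyte markers rose in the checked columns (2.00-fold and 1.29-fold), where 3% of all genes rose. Pdgfra and Neu4 of 8 markers of oligodendrocyte progenitors rose there too (log2 0.37 and 0.59). Most members of both lists were negative there, 6 of 10 and 6 of 8, with medians of -0.04 and -0.23. Pdgfra was called in 3 and Aldh1l1 in 12 of 13 fits that each left out 1 mouse. Of 10 microglia markers 9 had negative differences in each set, with medians of -0.35 and -0.51. Siglech and Aif1 fell in the checked columns, against 2.19% of all genes, Aif1 from a median of 1.93 to 0.845 CPM (2.39-fold lower, log2 -1.26, SE 0.21, edgeR adjusted p = 0.00262). P2ry12, a purine receptor of microglia, was called down in the assigned columns (log2 -1.53, adjusted p = 0.0492, a call that held under 8 of 25 alternatives) and not in the checked ones (log2 -0.70, adjusted p = 0.0591). The summed microglia list ran from 204 to 292 CPM on chow and from 129.1 to 217 CPM in fasted mice of the checked columns. In the assigned columns over the gene limit, 2 chow and 6 fasted, it ran from 219 to 292 CPM and from 129.1 to 196 CPM. No neuron, oligodendrocyte, thalamus, striatum, choroid plexus or ependymal marker was called in either set. Of all genes 0.693% were called in the assigned columns and 5.18% in the checked columns. The choroid plexus list had median log2 differences of -2.20 and -1.98, with all 8 negative, and the summed list of choroid plexus markers overlapped between diets. Without chow mouse 1443 the medians were -0.86 and -0.34, and 1 and 2 of the 8 were positive.

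The diet effect in the assigned columns was set against that in the hypothalamus columns of the same mice. These columns also differed in quality between the diets. The labels mark the hypothalamus libraries of fasted mice 1435 and 1455 as failing alignment, and none of those of the chow mice. Mitochondrial genes took 7.88% to 11.4% of counts in the chow hypothalamus columns and 7.64% to 29.2% in the fasted ones. The part of this in the comparison was not tested. For no gene did the difference of the effects pass: 0 of 22771 were called (0%, by edgeR, smallest adjusted p = 0.0644, 4168 genes at an unadjusted p under 0.05). limma on the difference of log2 CPM called 0 as well, with 6045 at an unadjusted p under 0.05. In 8 mice with both checked columns, 3 on chow and 5 fasted, 0 of 24706 were called by edgeR (0%, smallest adjusted p = 0.0563, 2287 at an unadjusted p under 0.05). This does not show that the regions responded alike. In the checked mice the effect in the zona incerta minus that in the hypothalamus was -0.30 (SE 0.16) for Sgk1, 0.27 (SE 0.21) for Fkbp5 and 1.04 (SE 0.20, adjusted p = 0.157) for Plin4 on the log2 scale. For Ddc it was 2.04 (SE 0.36, adjusted p = 0.144).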

How the data were processed

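RNA of 5 regions per mouse was sequenced in 19 mice of the 24 h study. The deposited table holds whole-number counts per gene, which the authors made with bcl2fastq 2.20.0, STAR 2.7.3a and R 4.1.3 on GRCm39, as the submitters' processing notes name them. The strand setting of the counting is not given in the sources used here. Its column headings give the mouse and diet but not the region, and 90 columns of another study were not used.

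Columns were assigned by markers and the assigned columns ran from 1094563 to 57103074 counts. Genes were filtered with filterByExpr, scaled by TMM and tested with edgeR 4.0.16 (quasi-likelihood) in R 4.3.3, with Benjamini-Hochberg adjustment over all genes tested. CPM values beside a test are scaled by TMM within the set, while marker sums are plain CPM. Diet effects in zona incerta and hypothalamus were compared in 1 fit with mouse as a term. Alternatives used DESeq2 1.42.0 and limma 3.58.1. The scripts were tested on simulated data. The columns, lists and markers were chosen with earlier results of these data known, and 414 of 416 listed genes matched by symbol. Named genes are the 10 largest calls in each direction whose average log2 CPM was 1 or more and whose diets were apart, the 3 largest calls of a list in a direction, and fixed cell class genes. Other genes named were chosen after their values had been seen. The checked columns, the mitochondrial covariate and the fits built on them were added after seeing the data. Values of some listed genes are not reported here, and counts over a list include them.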

Additional observations from a re-analysis of the deposited data

Results flagged for a closer look

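A column was singled out where its log2(CPM + 1) lay far from the other columns of its diet by Dixon's test. This was so in 35 of 340 groups over 85 genes (10.3%), where chance gives about 1 in 20 groups. Fasted mouse 1454 and chow mouse 1431 had low columns with high striatum markers, and chow mouse 1443 a column with high choroid plexus markers. The part of either in these values was not tested. All values below are CPM, with the range of the other columns of that diet in parentheses.

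The assigned columns held 21 of these values. In chow mouse 1442, Itgad was 1.35 (0 to 0.355). In chow mouse 1452, Hif3a was 5.58 (2.39 to 3.21). In fasted mouse 1434, Sgk1 was 802.5 (234.5 to 337.5). In fasted mouse 1424, Tbc1d32 was 12 (13.6 to 15.1). In chow mouse 1431, Mfsd2a was 1.19 (5.85 to 11.3), Gbp3 was 1.19 (2.82 to 3.72) and Sesn1 was 57.3 (25.5 to 32.4). In chow mouse 1443, Pdk4 was 5.74 (8.78 to 10.5) and Pvalb was 9.43 (97.1 to 363.9). In fasted mouse 1455, Gad2 was 122.6 (193.7 to 281.1). In fasted mouse 1454, Sst was 205.2 (13.7 to 43.5), Lepr was 0.382 (2.55 to 6.96) and Alpl was 0.954 (2.59 to 3.9). Mouse 1454 also stood apart where H1f3 was 38.2 (1.44 to 5.63), Dbp was 156.3 (13.7 to 27.2) and Chordc1 was 13.2 (39.1 to 56.9). Mouse 1454 also stood apart where Kdr was 2.67 (6.65 to 12), Arc was 121.97 (10.9 to 22.8) and Aif1 was 8.4 (0.405 to 2.3). Mouse 1454 also stood apart where Pdgfra was 29.6 (51.3 to 78) and Trp53inp1 was 18.7 (32.1 to 50.2).

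The checked columns held the other 14. In chow mouse 1443, Maff was 0.642 (1.11 to 1.37), Rspo3 was 12.5 (1.54 to 2.9) and Tbc1d32 was 31 (19.6 to 21.3). Mouse 1443 also stood apart where Slc2a1 was 58.1 (82.5 to 89.3), Nr3c1 was 95.5 (175.1 to 249.1) and Lepr was 9.44 (2.91 to 4.12). In fasted mouse 1433, Trhde was 4.2 (9.06 to 12). In fasted mouse 1424, Tbc1d32 was 15.2 (17.2 to 18.9). In fasted mouse 1455, Dlx6 was 1.64 (3.02 to 4.39) and Gad2 was 151.1 (275.8 to 363.8). In chow mouse 1451, Gbp3 was 5.13 (3.53 to 4.02). In fasted mouse 1425, Kdr was 20.5 (12.1 to 15.1) and Sesn1 was 33.1 (44.5 to 53.7). In chow mouse 1452, Acads was 7.2 (4.93 to 5.07).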

How the results depend on the processing

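The number of called genes depended on which columns entered. With all assigned columns 94 genes rose and 44 fell (0.472% and 0.221% of the genes tested). DESeq2 called 1072 genes (1.75% up, 1.63% down), and an adjusted p under 0.1 gave 399 (1.15% up, 0.859% down). Without the expression filter 0.0505% fell. With the clock time of euthanasia as a covariate 67 were called (0.311% up, 0.0251% down), and with the mitochondrial share 70 (0.266% up, 0.0854% down). Columns with at least 16000 genes, 2 chow and 6 fasted, gave 264 calls (0.601% down). Mice whose zona incerta library is labelled as passing alignment gave 353 (0.663% up, 0.887% down), columns assigned after the quality limits 692 (2.05% up, 1.11% down) and the checked columns 1119 (3% up, 2.19% down). The 4 chow and 2 fasted columns with zona incerta markers first or second in the mouse gave 0 (0% up, 0% down) by edgeR, with 301 at an unadjusted p under 0.05. Fewer columns are part of that setting, and the cause of the other shifts was not tested.

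Leaving out each mouse in turn gave 46 to 974 calls, with 0.215% to 2.31% of genes up and 0.00978% to 2.86% down. It gave 974 without chow mouse 1452, 955 without fasted mouse 1454, 707 without fasted mouse 1434, and 46 to 66 without any other mouse but chow mouse 1443. The checked columns gave 674 to 1298 calls, with 674 without chow mouse 1431 and 712 without chow mouse 1451, and 327 (241 up, 86 down) without the mice whose notes name a doubt. Scaling by DESeq2's size factors moved the median log2 difference of all genes by 0.0945.

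The difference from the hypothalamus had 1 called gene without the expression filter, 1 with columns assigned after the quality limits and 1 at an adjusted p under 0.1. It had 0 to 2 without each mouse in turn. The call counts there were 1 without chow mouse 1432 and 2 without fasted mouse 1454.

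The genes named by the rule that changed sign under these alternatives were all uncalled with all assigned columns. Dlx6 was 0.1222 with columns assigned after the quality limits. Gad1 was -0.3573 in columns over the gene limit, -0.1061 in mice passing alignment, -0.08252 with quality first, -0.2699 with markers first or second and -0.03117 in the checked columns. Gad2 was 0.08346 with DESeq2, 0.07698 with its size factors, 0.05607 without the filter, 0.01171 with clock time, 0.0921 in mice passing alignment, 0.2013 with quality first and 0.1811 in the checked columns. Slc32a1 was -0.1452 over the gene limit, -0.002285 with quality first, -0.0301 without mice with notes, -0.1217 with markers first or second and -0.2393 with the mitochondrial share. Sst was 0.6359 and Th -0.6088 with markers first or second. Pvalb was 0.02801 without the filter, 0.2022 over the gene limit, 0.1561 with quality first, 1.165 with markers first or second, 0.9929 with the mitochondrial share and 0.2575 in the checked columns. Calb2 was 0.1913 over the gene limit, 0.3636 in mice passing alignment, 0.06594 with the mitochondrial share and 0.4016 in the checked columns. Lepr was -0.09067 over the gene limit. Without each mouse in turn Gad1 ran from -0.07816 to 0.3451, Gad2 from -0.2201 to 0.2532, Slc32a1 from -0.0513 to 0.3901, Pvalb from -0.5401 to 0.4213 and Th from -0.3208 to 1.351.

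No paired analysis of the diets was possible because each mouse had a single diet and the diets share no mouse number. Only the regions were compared within mice.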
